A study of Mus musculus with 48 samples.

Results

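Calcineurin and the calcium/calmodulin-dependent kinases were followed here through 8 genes in striatal RNA of 16 mice. The genes were taken by their symbols: Ppp3ca, Ppp3cb and Ppp3r1 for calcineurin, Camk2a, Camk2b, Camk2d and Camk2g for the kinase CaMKII, and Camk4 for the kinase CaMKIV. They are 8 of the 23420 genes of the deposited gene table, and 254 of the 368092 exon bins of the exon table lie within them. Each of the 8 was found once in the gene table and passed the filter on low counts. The tested mice were 8 congenic mice, named in the labels by a segment of 112 kb, and the mice they were set against were 8 C57BL/6J wild-type littermates. Each genotype held 4 males and 4 females, at about 50 days of age. As background, the segment of this line comes from the DBA/2J strain and lies on chromosome 11. The tissue of a mouse was a pool of 3 mm punches from its left and right striatum, so a level is an average over all cell types of the punch.

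Calcineurin is a phosphatase that calcium and calmodulin switch on. It is built from a catalytic A subunit, encoded by Ppp3ca or Ppp3cb in brain, and the calcium-binding B subunit of Ppp3r1. CaMKII is a kinase assembled from many alpha, beta, delta and gamma subunits, and can stay active after the calcium signal has ended by phosphorylating itself. CaMKIV, the product of Camk4, works largely in the nucleus and phosphorylates the transcription factor CREB. In medium spiny neurons, the main cell type of the striatum, calcineurin removes the phosphate that dopamine signalling places on DARPP-32, the product of Ppp1r1b. Splicing of the CaMKII genes changes mostly the variable linker between the catalytic part and the part through which subunits assemble.

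On the mm9 build the genes lie as follows. Ppp3ca is at chr3:136333088-136600691 and Camk2d at chr3:126299220-126547972, both on the plus strand. Ppp3cb is at chr14:21318586-21365795 and Camk2g at chr14:21554097-21613310, both on the minus strand. Ppp3r1 is at chr11:17059266-17100378 on the plus strand, and Camk2b at chr11:5869647-5966365 on the minus strand. Camk2a is at chr18:61085272-61147806 and Camk4 at chr18:33098695-33355421, both on the plus strand. The exon table joins Ppp3r1 with its neighbour Wdr92 into 1 group, and for Ppp3r1 the 8 bins inside its own bounds are used.

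Each mouse held 73125051 to 81994255 counts in the gene table, summed over 3 lanes, so the least counted of the 8 genes, Camk2d, still had 1771 to 3420 counts in a mouse. The defining markers of medium spiny neurons were high in every mouse: Ppp1r1b was at 1642 to 2231 CPM in congenics and 1651 to 2294 CPM in wild-type mice (CPM, counts-per-million after TMM scaling). Both dopamine receptor genes were present as well, with Drd1a at 258 to 335 CPM in congenics and 256 to 312 CPM in wild-type mice, and Drd2 at 178 to 246 and 181 to 247 CPM in the same order. Slc17a7, which marks cortical excitatory neurons, was at 20.7 to 186 CPM in congenics and 49.5 to 177 CPM in wild-type mice. The score of a list of 16 medium spiny neuron markers was lowest in 3 females, at -0.15 in Sample_4753, -0.20 in Sample_4804 and -0.20 in Sample_4806 (mean log2 difference from the average mouse), where the other 13 mice lay between -0.06 and 0.15. Female Sample_4806 also went against its sex label in Xist, with 2.64 CPM against 951 to 1549 CPM in the other 7 females. Its Y-linked Ddx3y went with the label, at 0.06 CPM, against 0.01 to 1.01 CPM in the other females and 62.7 to 93.1 CPM in males. The sex values, ratios and correlations of the 8 genes are therefore also given without these 3 mice.

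The order of the 8 genes depended on how transcript length was treated. Per kb of annotated exon, Ppp3r1 and Ppp3ca led, with 335 ± 10.2 and 327 ± 18.9 CPM per kb in congenic mice and 331 ± 7.71 and 324 ± 17.6 CPM per kb in wild-type littermates (SD, n = 8 each). Their ranges overlapped, and Ppp3r1 was the higher of the pair in 9 of 16 mice. Camk2a followed at 248 ± 13.6 CPM per kb in congenics and 255 ± 20.6 in wild-type mice, and Camk2b at 161 ± 12.2 and 164 ± 17.3 CPM per kb in the same order (SD, n = 8 each). Camk4 and Ppp3cb came next, at 52.0 ± 4.82 and 46.8 ± 1.84 CPM per kb in congenic mice and 50.6 ± 3.47 and 46.5 ± 1.68 CPM per kb in wild-type mice, with overlapping ranges. Camk2g was at 19.6 ± 1.53 CPM per kb in congenics and 19.4 ± 1.31 in wild-type mice, and Camk2d at 1.86 ± 0.41 CPM per kb in congenics and 1.94 ± 0.34 in wild-type littermates (SD, n = 8 each). The steps between Ppp3ca and Camk2a, Camk2a and Camk2b, Camk2b and Camk4, Ppp3cb and Camk2g, and Camk2g and Camk2d held in 16 of 16 mice.

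Annotated exon length includes untranslated ends that these cells may not use in full. A second measure was therefore taken over coding bins that no annotated coding transcript skips, as the median count divided by the number of positions from which a read can touch the bin, in CPM per kb of read positions. On this scale Ppp3ca led alone with 832 ± 50.0 in congenics and 817 ± 40.1 in wild-type mice, ahead of Camk2a at 498 ± 32.1 and 517 ± 47.9 and of Ppp3r1 at 455 ± 25.9 and 453 ± 17.8, each pair in the same order of genotypes (SD, n = 8 each). Camk2a and Ppp3r1 overlapped, with Camk2a higher in 15 of 16 mice. Ppp3cb and Camk4 changed places, with means over all mice of 76.4 and 75.5 CPM per kb of read positions. In Camk4 the last bin, an untranslated stretch of 10428 bases, held 70.3 ± 1.81% of the exon counts in congenics and 69.5 ± 1.81% in wild-type mice, so its level per kb rests mostly on that stretch.

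The make-up of both families is described by this coding measure. Of the 4 CaMKII genes together, Camk2a made up 57.8 ± 2.18% in congenics and 58.5 ± 1.64% in wild-type mice, and Camk2b 37.7 ± 2.07% in congenics and 36.8 ± 1.94% in wild-type littermates (SD, n = 8 each). Camk2g made up 3.57 ± 0.26% in congenics and 3.58 ± 0.34% in wild-type mice, and Camk2d 0.995 ± 0.267% and 1.07 ± 0.25% in the same order. Of the calcineurin A genes Ppp3ca and Ppp3cb together, Ppp3ca made up 91.5 ± 0.9% in congenics and 91.5 ± 1.1% in wild-type mice. These shares describe transcripts, not subunits of the enzymes.

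None of the 8 genes passed the test for a difference between congenic and wild-type striatum. By edgeR's quasi-likelihood test 0 of 8 passed an adjusted p of 0.05, beside 0% of all 16716 genes tested. At an unadjusted p under 0.05 it was also 0 of 8, beside 1.53% of all genes. DESeq2 and limma-voom called 0 of 8 as well, beside 0 of 20647 and 0 of 16716 genes tested. The log2 fold changes, congenic over wild-type, ran from -0.06 to 0.04 with a median of 0.01, beside a median of 0.00 over all genes.

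Ppp3ca, the main catalytic subunit in these counts, had a lowest, median and highest value of 1591, 1836 and 1914 CPM in congenic mice, against 1592, 1804 and 1874 CPM in wild-type mice. The lowest mouse of each genotype was a female of the low marker scores, Sample_4804 among congenic and Sample_4806 among wild-type mice, and the ranges overlapped almost completely. The log2 fold change was 0.02 with a 95% interval of -0.07 to 0.11. Ppp3cb, the other catalytic subunit, had 265, 285 and 295 CPM in congenic mice against 266, 279 and 298 CPM in wild-type mice, a log2 fold change of 0.01 with an interval of -0.06 to 0.08. Ppp3r1, the B subunit, was the steadiest of the 8, with 1033, 1083 and 1118 CPM in congenic mice against 1040, 1062 and 1112 CPM in wild-type mice. Its highest mouse was 1.08 times its lowest, and its log2 fold change was 0.02 with an interval of -0.05 to 0.09.

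Camk2a, the alpha subunit of forebrain neurons, had a lowest, median and highest value of 1657, 1854 and 1977 CPM in congenic mice, against 1715, 1879 and 2119 CPM in wild-type mice. Its log2 fold change was -0.04 with an interval of -0.14 to 0.06. Camk2b, whose beta subunit binds actin filaments, had 1308, 1488 and 1648 CPM in congenic mice against 1274, 1522 and 1752 CPM in wild-type mice, a log2 fold change of -0.03 with an interval of -0.15 to 0.10. Congenic mice spanned a narrower range than wild-type mice for both genes and lay within it, apart from a single congenic mouse below the wild-type range of Camk2a. Camk2g, the gamma subunit found in many tissues, had 86.6, 94.6 and 107 CPM in congenic mice against 88.4, 92.0 and 108 CPM in wild-type mice, a log2 fold change of 0.02 with an interval of -0.08 to 0.12.

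Camk2d, the delta subunit best known from heart, spread most between mice. It had a lowest, median and highest value of 23.4, 27.9 and 41.3 CPM in congenic mice against 23.8, 30.4 and 40.7 CPM in wild-type mice. The highest mouse was 1.77 times the lowest, so its interval was the widest, -0.34 to 0.22 around a log2 fold change of -0.06, which as a ratio allows 0.79 to 1.16. Its coefficient of variation over the 16 mice was 19.1%, against 2.69% for Ppp3r1 and 3.67% to 8.94% for the other 6 genes. Camk4 had 556, 638 and 747 CPM in congenic mice against 566, 619 and 694 CPM in wild-type mice, a log2 fold change of 0.04 with an interval of -0.07 to 0.15. For the 7 genes other than Camk2d, the intervals reach from 0.90 to 1.11 at their widest as a ratio of congenic to wild-type.

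**Figure D1:**
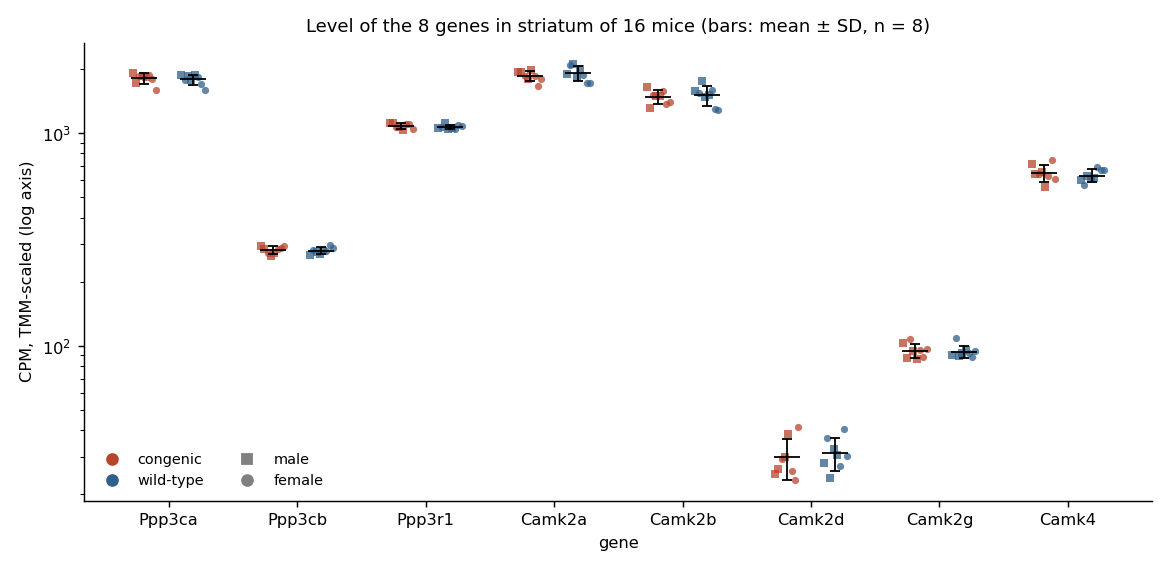
Level of each gene in each mouse, in CPM on a log axis, with congenic mice left of wild-type mice, squares for males and circles for females, and bars for the mean ± SD of 8 mice. The 2 genotypes overlap for every gene, and Camk2d shows the widest scatter, from 23.4 to 41.3 CPM.

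The genotype effect was also compared between the sexes with an interaction term. It was called for 0 of 8 genes by edgeR, beside 0% of all genes, and at an unadjusted p under 0.05 for 0 of 8, beside 4.18% of all genes. The smallest p among the 8 was that of Camk2b, at 0.313 unadjusted and 0.967 adjusted, with an interaction of -0.12 on the log2 scale and an interval of -0.38 to 0.13. The interval of Camk2d was the widest, -0.34 to 0.79.

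In every comparison of the sexes, sex and the order of the mice cannot be cleanly told apart. No male is numbered above Sample_4734, and all mice from Sample_4737 on are female. Between the sexes, too, none of the 8 genes passed the test, beside 0.138% of all genes. At an unadjusted p under 0.05 it was 0 of 8, beside 14.7% of all genes. DESeq2 called 0 of 8, beside 261 of 15844 genes tested, and limma-voom 0 of 8, beside 19 of 16716. Camk2a came closest. It had a lowest, median and highest value of 1796, 1932 and 2119 CPM in males, against 1657, 1825 and 2081 CPM in females, and the ranges overlapped. Its log2 fold change, male over female, was 0.09 with an interval of -0.01 to 0.19 (edgeR adjusted p = 0.377). Ppp3ca had 1716, 1852 and 1914 CPM in males against 1591, 1780 and 1879 CPM in females, a log2 fold change of 0.07 with an interval of -0.02 to 0.16 (edgeR adjusted p = 0.469). Camk2b had 0.08 with an interval of -0.04 to 0.21. On the other side of 0 were Camk2d at -0.12, Camk2g at -0.06, Camk4 at -0.06 and Ppp3cb at -0.05, each with an interval that held 0. Ppp3r1 was at 0.00, and at -0.03 when scaled by library size alone. Without Sample_4753, Sample_4804 and Sample_4806 the log2 fold change was 0.0052 for Ppp3ca, 0.00025 for Camk2b, 0.05 for Camk2a and 0.04 for Camk2d. It was -0.03 for Ppp3cb, -0.10 for Camk2g and -0.06 for Camk4, each with an edgeR adjusted p above 0.97. The mice left out are all female and have the lowest medium spiny neuron scores. Ppp3ca and Camk2b follow that score across mice, so their smaller values here are no independent check.

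**Figure D2:**
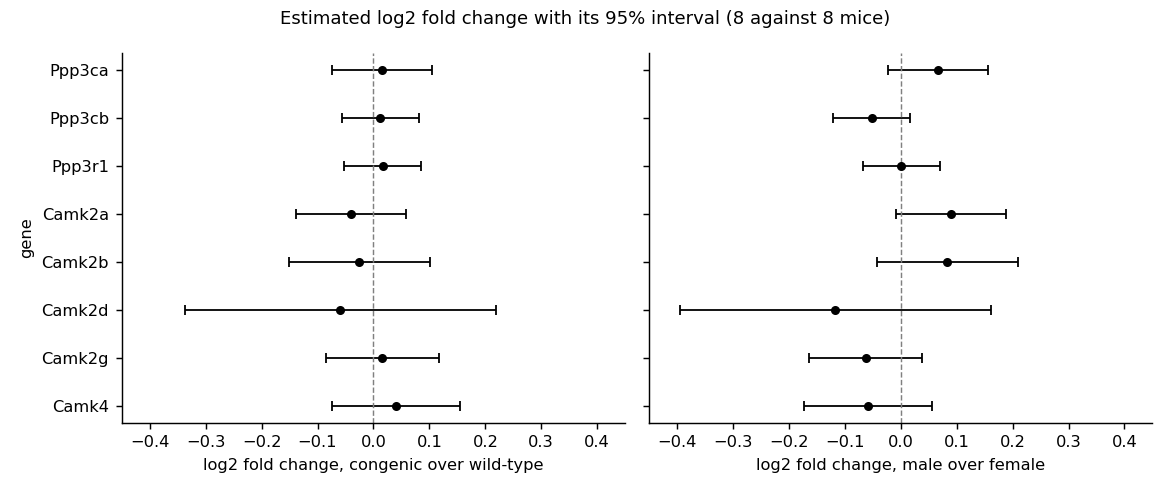
Estimated log2 fold change of each gene with its 95% interval, congenic over wild-type on the left and male over female on the right, 8 against 8 mice each. Every interval includes 0, and those of Camk2d are the widest.

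The fold changes of cell type markers between the sexes were read beside these values. All 16 medium spiny neuron markers had a positive fold change, male over female, with a median of 0.11 on the log2 scale, and all 14 cortical markers a negative one, with a median of -0.62. By edgeR none of either list passed the test, beside 0.138% of all genes. DESeq2 called 1 and 0, beside 261 of 15844 genes tested, and limma-voom 0 and 0, beside 19 of 16716. At an unadjusted p under 0.05 it was 6 of 16 and 2 of 14, beside 14.7% of all genes. The summed level of the cortical list was 127 to 359 CPM in males and 146 to 375 CPM in females, and that of the medium spiny neuron list 12163 to 14291 CPM in males and 10918 to 13529 CPM in females. The fold changes of all marker lists are over all mice, with Sample_4753, Sample_4804 and Sample_4806, the 3 females of lowest medium spiny neuron score, included. The other 5 females scored -0.03 to 0.05 on that list, and males -0.06 to 0.15. All 5 microglia markers had a positive fold change, male over female, with a median of 0.16. Of them 4 had an unadjusted p under 0.05, beside 14.7% of all genes, and their summed level was 265 to 325 CPM in males and 232 to 287 CPM in females. All 4 endothelial markers were positive as well, with a median of 0.10, and 1 of 6 oligodendrocyte markers, with a median of -0.08. Of interneuron, astrocyte, thalamus and septum and pallidum markers 6 of 8, 2 of 6, 0 of 5 and 2 of 5 were positive. None of these lists held a gene called for sex by edgeR, DESeq2 or limma-voom. Between genotypes the cortical list had 2 of 14 positive fold changes with a median of -0.36, and 127 to 375 CPM in congenic against 163 to 359 CPM in wild-type mice. The part of these markers in the results was not tested.

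Ratios of counts within a mouse cancel its depth and scaling. They are not per length, so they serve to compare mice and not to say which subunit is more abundant. None of 7 ratios passed the test between genotypes. Camk2a over Camk2b was 1.26 ± 0.10 in congenics and 1.27 ± 0.07 in wild-type littermates (SD, n = 8 each), an exact permutation p of 0.779 within sex. Ppp3ca over Ppp3cb was 6.41 ± 0.52 in congenics and 6.39 ± 0.52 in wild-type mice (exact permutation p = 0.948), and Ppp3ca over Ppp3r1 was 1.67 ± 0.09 in congenics and 1.67 ± 0.11 in wild-type mice (exact permutation p = 0.974). The largest difference was that of Camk4 over Camk2a, 0.352 ± 0.048 in congenics and 0.334 ± 0.045 in wild-type mice, 0.07 on the log2 scale (exact permutation p = 0.440). The adjusted p over the 7 ratios was 0.974 for each, and 4900 arrangements allow a p as small as 0.000408.

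Between the sexes, which cannot be cleanly told apart from mouse order, 1 of the 7 ratios passed, Camk2g over Camk2a. It was 0.0478 ± 0.0040 in males and 0.0530 ± 0.0025 in females (SD, n = 8 each), -0.15 on the log2 scale, male minus female. The exact permutation p within genotype was 0.00694, and 0.0486 adjusted over the 7 ratios. Males ran from 0.0421 to 0.0534 and females from 0.0493 to 0.0577, so the ranges overlapped, with 5 males below every female. The call held without congenic male Sample_4671, congenic male Sample_4731, wild-type male Sample_4732 or wild-type female Sample_4738, and was lost without any other single mouse. The log2 difference stayed between -0.18 and -0.13 over these 16 fits, and without females Sample_4753, Sample_4804 and Sample_4806 together it was -0.15 with an adjusted p of 0.293. Two-sided exact permutation p values also fell below 0.05 before adjustment for Ppp3cb over Ppp3r1, 0.257 ± 0.007 in males and 0.266 ± 0.009 in females (p = 0.0339, adjusted p = 0.106), and for Ppp3ca over Ppp3cb, 6.66 ± 0.32 in males and 6.14 ± 0.54 in females (p = 0.0453, adjusted p = 0.106). Their log2 differences were -0.05 and 0.12 over all mice, and -0.03 and 0.03 without the 3 females, with an exact permutation p of 0.669 after adjustment for each.

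The question in the title of the series is differential splicing, and the 8 genes hold 20 coding bins of at least 10 bases that some annotated coding transcripts skip. The level of such a bin was set against the nearest coding bins that are not skipped, per position from which a read can touch it, so 100% stands for a bin as covered as its neighbours. Exons of the same length that resemble each other, between related genes or within 1 gene, are shown so that their letters can be set beside their use, read from the mm9 genome 5′ to 3′ on the strand of the gene. The 30-base exons of both calcineurin A genes are bin 27 of Ppp3ca, chr3:136594975-136595004 on the plus strand, and bin 5 of Ppp3cb, chr14:21322469-21322498 on the minus strand. Capitals mark the 26 bases that both hold at the same place.
Ppp3ca bin 27: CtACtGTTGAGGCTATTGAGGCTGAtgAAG
Ppp3cb bin 5: CcACaGTTGAGGCTATTGAGGCTGAaaAAG

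These exons are known as an optional insert near the end of the catalytic subunit, beyond its calmodulin-binding part. The Ppp3ca exon stood at 86.9 ± 2.29% of its neighbour in congenics and 86.8 ± 1.64% in wild-type littermates (SD, n = 8 each). Its range over all 16 mice was 84.1 to 90.5%. The Ppp3cb exon stood at 107 ± 4.53% in congenics and 109 ± 2.87% in wild-type mice. Neither exon passed the test between genotypes (edgeR adjusted p above 0.99 for both).

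Among the CaMKII genes, exons of 33 bases in the linker were used very unequally. That of Camk2g, bin 8, is at chr14:21567041-21567073 on the minus strand, and that of Camk2d, bin 41, at chr3:126505855-126505887 on the plus strand. Capitals mark the 26 bases that the pair shares.
Camk2d bin 41: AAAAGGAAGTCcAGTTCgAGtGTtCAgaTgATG
Camk2g bin 8: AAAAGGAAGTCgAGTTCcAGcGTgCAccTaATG

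In rat, inserts at this place in the alpha and delta subunits are known to carry a nuclear localisation signal. In these mice the Camk2g exon stood at 59.7 ± 5.16% of its neighbours in congenics and 62.4 ± 4.6% in wild-type mice, while the Camk2d exon stood at 4.91 ± 2.77% in congenics and 3.11 ± 2.12% in wild-type littermates (SD, n = 8 each). The Camk2d exon had a mean of 3.56 counts per mouse and was left out of the test. Camk2a also holds an exon of the same length, bin 22, whose letters were not compared with those of the others. This exon stood at 2.68 ± 0.39% in congenics and 2.30 ± 0.29% in wild-type mice, with a mean of 133 counts per mouse. Its usage log2 fold change, congenic over wild-type, was 0.21 at an unadjusted p of 0.0465 and an adjusted p above 0.99. The 33-base exon of Camk2b, bin 29, is not in the linker but ahead of it. It lies upstream of bins 28, 27, 26 and 25, of 95, 123, 84 and 43 bases. Bin 29 stood at 8.15 ± 1.36% in congenics and 8.60 ± 1.76% in wild-type mice. It shares 9 of 33 bases with the Camk2g exon and 7 of 33 with the Camk2d exon, so it is alike in length only.

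Camk2d holds a pair of 73-base exons next to each other, bin 21 at chr3:126473703-126473775 and bin 23 at chr3:126474692-126474764, both on the plus strand and ahead of the linker. Capitals mark the 50 bases that both hold at the same place, 68.5% of their length.
Camk2d bin 21: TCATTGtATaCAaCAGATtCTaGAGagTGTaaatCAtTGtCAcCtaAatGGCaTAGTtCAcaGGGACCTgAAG
Camk2d bin 23: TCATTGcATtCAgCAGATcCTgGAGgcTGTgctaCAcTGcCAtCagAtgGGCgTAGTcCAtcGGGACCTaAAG

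Of the annotated coding transcripts that span them, 12 of 14 hold bin 21 and 2 of 14 hold bin 23. Bin 21 stood at 97.2 ± 6.19% of its neighbours in congenics and 98.1 ± 9.39% in wild-type mice, and bin 23 at 9.66 ± 2.99% in congenics and 9.71 ± 4.45% in wild-type littermates (SD, n = 8 each). The less used bin 23 shares 58 of 73 bases with the exon of that length in Camk2b and 50 of 73 with that in Camk2g, while bin 21 shares 51 and 54. The letters of the 73-base bin 12 of Camk2a were not compared. Neither Camk2d exon passed the test between genotypes, on means of 117 and 11.7 counts per mouse.

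The rest of the alternative exons fell into bins that were almost always used, bins that were hardly used and a middle group. In Camk2b, bins 19, 20 and 24, of 45, 72 and 75 bases, stood at 101 ± 3.99%, 107 ± 3.30% and 102 ± 1.27% in congenic mice and at 101 ± 3.27%, 107 ± 2.95% and 102 ± 2.07% in wild-type mice. Its bins 15, 16 and 17 stood between 0.70 and 2.28% over all mice, with no more than 94 counts per mouse on average. In Camk2g, bin 7 of 69 bases stood at 52.1 ± 4.66% in congenics and 51.4 ± 2.97% in wild-type mice, and bin 14 of 95 bases at 105 ± 3.61% and 105 ± 2.96% in the same order. In Camk2d the middle group was bins 43, 44 and 55, with 77.2 ± 12.8%, 65.5 ± 6.77% and 64.3 ± 10.7% in congenic mice and 78.3 ± 7.04%, 57.9 ± 5.35% and 63.1 ± 9.95% in wild-type littermates (SD, n = 8 each). Bin 4 of Camk2a was at 0.12 ± 0.04% in congenics and 0.10 ± 0.04% in wild-type mice.

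**Figure D3:**
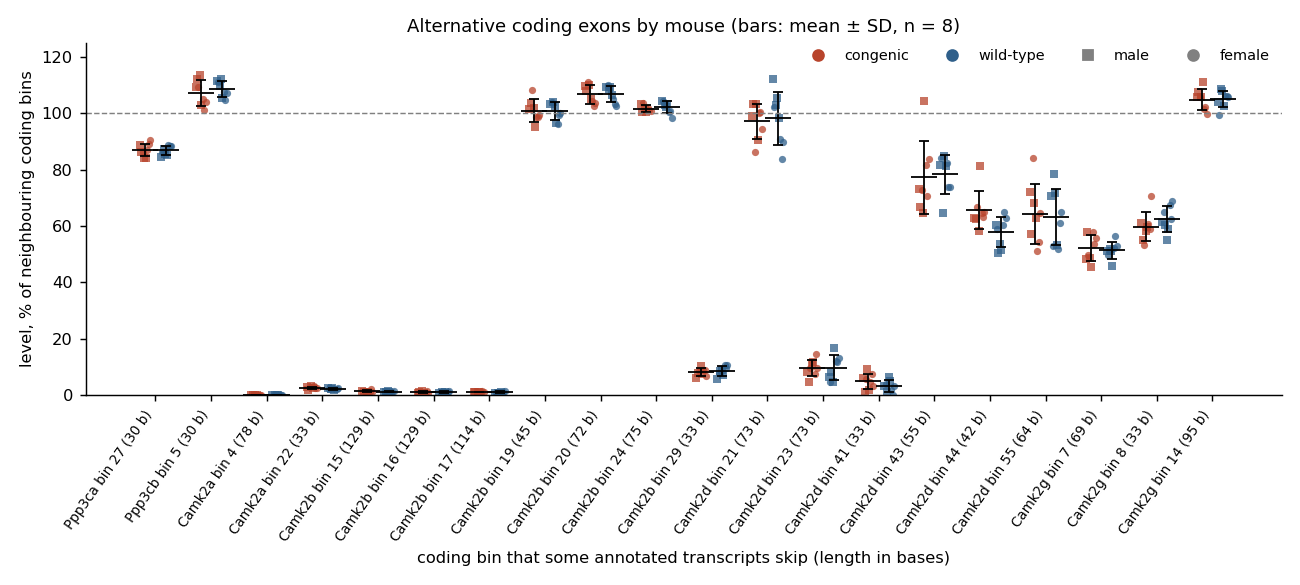
Level of each coding bin that some annotated coding transcripts skip, as a percent of the neighbouring coding bins, with congenic mice left of wild-type mice and bars for the mean ± SD of 8 mice. The Ppp3ca and Ppp3cb exons and 3 of the 7 Camk2b exons stand between 86.9 and 108% as means over all mice, the other 4 Camk2b exons between 1.07 and 8.37%, the 33-base exons range from 61.0% in Camk2g to 2.49% in Camk2a, and the genotypes overlap throughout.

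Tested bin by bin against the rest of their gene with edgeR's diffSpliceDGE, 0 of the 226 testable bins of the 8 genes were called between genotypes, beside 0.000425% of all 235478 bins. At an unadjusted p under 0.05 it was 4 of 226, or 1.77%, beside 1.03% of all bins. The diffSplice test of limma called 0 of the 226, beside 0 of all 235478 bins. The smallest p was that of bin 11 of Ppp3cb, a stretch of 3 coding bases, which held 1.08 ± 0.15% of the gene's exon counts in congenics and 0.952 ± 0.115% in wild-type mice (usage log2 fold change 0.18, p = 0.0253 unadjusted). Bin 1 of Camk2b, 24 bases at the far end of its untranslated stretch, held 0.0061 ± 0.0028% in congenics and 0.0098 ± 0.0039% in wild-type mice, a usage log2 fold change of -0.66 (p = 0.0367 unadjusted) on a mean of 15.8 counts per mouse. The smallest unadjusted p of the other genes was 0.0463 for Ppp3ca bin 30, 0.0465 for Camk2a bin 22, 0.0801 for Camk2d bin 34, 0.0953 for Camk2g bin 8, 0.162 for Camk4 bin 2 and 0.231 for Ppp3r1 bin 7. None had an adjusted p below 0.99.

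Between the sexes, which cannot be cleanly told apart from mouse order, 2 of the 226 bins passed, or 0.885%, beside 0.0157% of all bins. Both belong to the 3′ untranslated part of Ppp3ca and lie side by side: bin 29, of 98 bases at chr3:136598744-136598841, and bin 30, of 23 bases at chr3:136598842-136598864. A read at their border can be counted in both. They sit in a gap of coverage, with 2.03 and 13.3 counts per base on average, where bin 28 before them had 57.1 and bin 31 after them 28.4. These values are per base of the bin and not per read position. Reads that only reach into the 23-base bin 30 therefore raise its value above its coverage. Bin 29 held a lowest, median and highest share of 0.0270, 0.0460 and 0.0610% of the gene's exon counts in males, against 0.0376, 0.0639 and 0.128% in females. Bin 30 held 0.0407, 0.0719 and 0.0983% in males, against 0.0629, 0.0922 and 0.201% in females. In both bins Sample_4804 and Sample_4806 stood above all other mice, Sample_4739 and Sample_4753 stood next and also above every male, and the other 4 females lay within the range of the males.

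The usage log2 fold change, male over female, was -0.59 for bin 29 (edgeR adjusted p = 0.000253) and -0.58 for bin 30 (edgeR adjusted p = 1.62e-05). Without female Sample_4806, whose Xist level went against its label, it was -0.41 with an adjusted p of 0.160 for bin 29 and -0.39 with an adjusted p of 0.0644 for bin 30. Without female Sample_4804 bin 29 was at -0.44 with an adjusted p of 0.106, and bin 30 at -0.43 with an adjusted p of 0.0209. Without the 3 females of low marker scores the values were -0.13 and -0.14, with adjusted p above 0.99. The shares of the other 5 females were then 0.0499 ± 0.0149% for bin 29 and 0.0775 ± 0.0181% for bin 30 (SD, n = 5), against 0.0459 ± 0.0110% and 0.0710 ± 0.0176% in males (SD, n = 8). Neither neighbour passed: bin 28 held 12.3 ± 0.34% in males and 12.5 ± 0.30% in females, and bin 31 held 14.3 ± 1.05% in males and 15.6 ± 1.44% in females. Bin 31 was likewise highest in Sample_4804 and Sample_4806, at 17.7 and 17.3%, against at most 16.1% in the other mice.

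**Figure D4:**
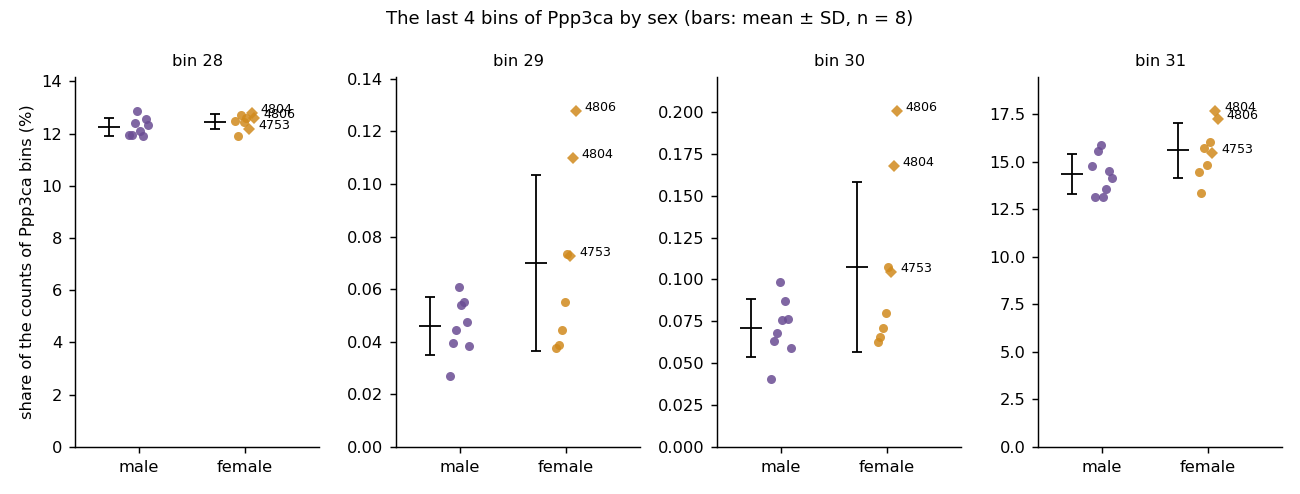
Share of the exon counts of Ppp3ca in its last 4 bins, males left of females, with diamonds and numbers for females Sample_4753, Sample_4804 and Sample_4806 and bars for the mean ± SD of 8 mice. In bins 29 and 30 females Sample_4806 and Sample_4804 stand apart, at 0.128 and 0.110% in bin 29, and 4 of 8 females lie within the range of the males in both bins.

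Counting these 2, 12 of the 226 bins, or 5.31%, had an unadjusted p under 0.05 between the sexes, beside 3.25% of all bins, and none of the other 10 had an adjusted p below 0.99. The 30-base exon of Ppp3cb was among them, with 5.18 ± 0.31% of the gene's exon counts in males and 4.65 ± 0.42% in females (p = 0.0167 unadjusted), as was the 33-base exon of Camk2b, with 0.104 ± 0.020% in males and 0.126 ± 0.021% in females (p = 0.0120 unadjusted). The first bin of Camk4 held 2.70 ± 0.23% in males and 2.42 ± 0.17% in females (p = 0.0258 unadjusted), and bin 6 of Camk2a, of 1727 noncoding bases, had a mean of 8.38 counts per mouse (p = 0.0420 unadjusted). In Camk2d, Camk2g and Ppp3r1 the smallest unadjusted p was 0.152, 0.139 and 0.265. Among bins with a mean of at least 50 counts per mouse, the share spread most between mice in noncoding or untranslated bins. Bins 29 and 30 of Ppp3ca had coefficients of variation of 46.8 and 46.3%, and bin 49 of Camk2b followed with 40.2% on a mean of 85.2 counts per mouse.

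Across the 16 mice the 8 genes did not move as a block. Ppp3ca and Camk2b followed the score of the 16 medium spiny neuron markers, of which neither is a member. For Ppp3ca, Pearson's r with the score was 0.92 (permutation p = 1e-05, the smallest that 100000 resamples can give, and 8e-05 adjusted over 16 relations), and Spearman's rho was 0.81 (permutation p = 0.00033, adjusted p = 0.00264). For Camk2b, r was 0.88 (permutation p = 1e-05, adjusted p = 8e-05) and rho 0.80 (permutation p = 0.00031, adjusted p = 0.00264). Without mice Sample_4804 and Sample_4806, which lie farthest from the median score, r was 0.82 for Ppp3ca and 0.91 for Camk2b. Without Sample_4753 as well it was 0.74 for Ppp3ca (permutation adjusted p = 0.0243) and 0.88 for Camk2b (permutation adjusted p = 0.0032). Within congenics and within wild-type mice r was 0.97 and 0.90 for Ppp3ca and 0.78 and 0.94 for Camk2b, and within males and within females 0.75 and 0.98 for Ppp3ca and 0.96 and 0.86 for Camk2b. In such bulk samples fewer cells of a type and less RNA per cell cannot be told apart.

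The other 6 genes gave no relation that passed. Camk2d had r = -0.58, Camk2a r = 0.57 and Ppp3cb r = -0.56 with the medium spiny neuron score, each with a permutation p of 0.0174 to 0.0225 and an adjusted p of 0.0620. Ppp3r1, Camk2g and Camk4 had r = 0.14, 0.12 and -0.04. With the score of 14 cortical excitatory neuron markers none of the 8 passed. Camk2g came closest with r = 0.56 (permutation p = 0.0232, adjusted p = 0.0620), and passed without the 3 females, with r = 0.75 (permutation adjusted p = 0.0235). Camk2a, which is also abundant in cortical neurons, had r = 0.03 over all mice (permutation p = 0.924, adjusted p = 0.924).

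**Figure D5:**
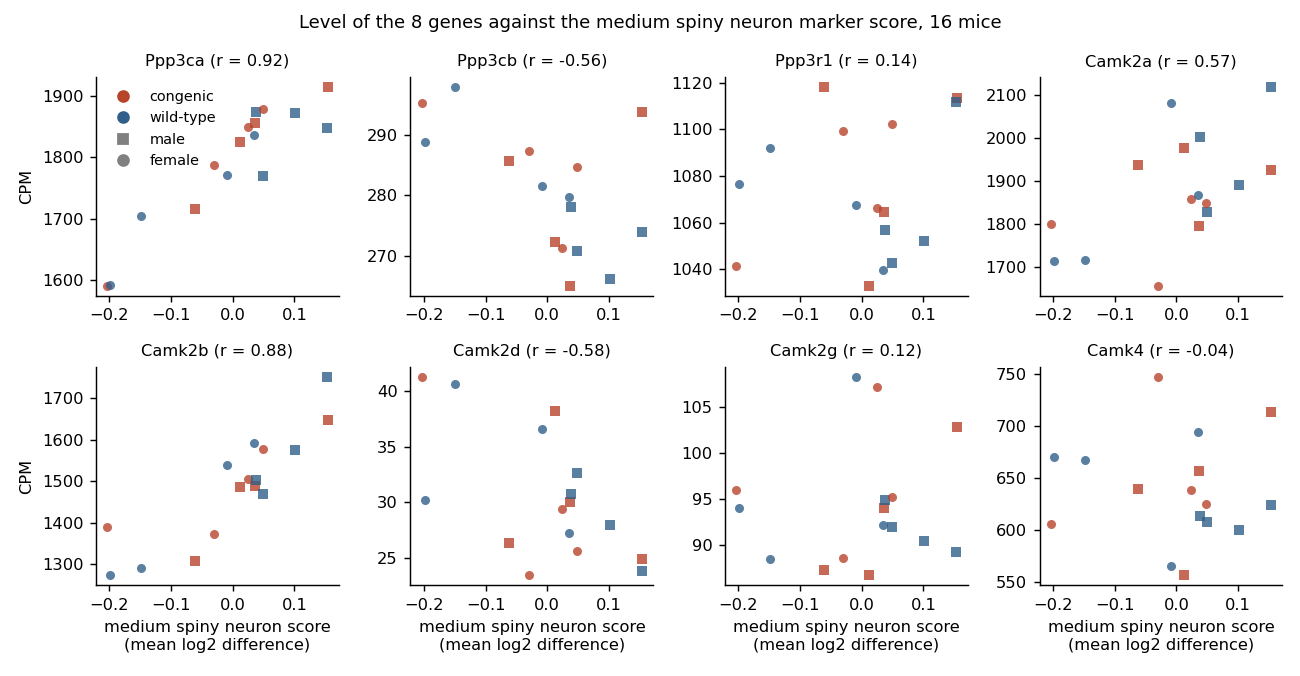
Level of each gene in CPM against the score of 16 medium spiny neuron markers, 1 point per mouse, with r computed on log2 CPM. Ppp3ca and Camk2b climb with the score, with r of 0.92 and 0.88, and the 3 lowest scores belong to females Sample_4804, Sample_4806 and Sample_4753.

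Of the 28 pairs among the 8 genes, 1 passed: Ppp3ca and Camk2b, with r = 0.77 (permutation p = 0.00042, adjusted p = 0.0118) and rho = 0.76 (permutation p = 0.0009, adjusted p = 0.0252). Without mice Sample_4804 and Sample_4806 r was 0.79, and within genotypes and sexes it ran from 0.75 to 0.84. Without Sample_4753 as well it was 0.70 with a permutation adjusted p of 0.0672, and centred within genotype and sex it was 0.74 with an adjusted p of 0.0641, so neither passed. Camk2a and Camk2b, the main CaMKII pair of neurons, had r = 0.66 (permutation p = 0.00562, adjusted p = 0.0787). The pair of catalytic calcineurin genes had r = -0.52 (permutation p = 0.0362, adjusted p = 0.168), and Camk2a and Camk4 had r = -0.59 (permutation p = 0.0155, adjusted p = 0.137), so neither passed. All these values share libraries and their scaling.

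The 3 genes whose pattern over the 16 mice was most like that of each gene were taken from the other 16715 genes tested, as a description. For Ppp3ca they were Actn1 (r = 0.96), Lmo7 (r = 0.96) and N28178 (r = 0.92), and for Camk2b Cpne5 (r = 0.98), Coro2b (r = 0.94) and Ampd2 (r = 0.94). For Camk2d they were Pip5k1b (r = 0.97), Pnoc (r = 0.96) and Gnas (r = 0.94), and for Camk4 Diap2 (r = 0.93), Ino80d (r = 0.92) and Nfat5 (r = 0.91). For Ppp3cb they were Smim13 (r = 0.92), Zfand5 (r = 0.92) and Serinc1 (r = 0.91), for Ppp3r1 Ostm1 (r = 0.83), AI593442 (r = 0.79) and Sh3bgrl2 (r = 0.78), and for Camk2a Prmt5 (r = 0.88), Slc35c2 (r = 0.88) and Zfpl1 (r = 0.86). For Camk2g the nearest were 4930419G24Rik (r = 0.82), Scfd2 (r = 0.79) and Gm16617 (r = 0.79), of which the first and the last had under 1 CPM on average.

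Around the 8 genes a list of 44 names of the same pathways was read: other subunits and inhibitors of calcineurin, calmodulins and their buffers, upstream and related kinases, and targets. Of these, 43 were tested. Between genotypes 0 of 43 passed by edgeR, beside 0% of all genes. At an unadjusted p under 0.05 it was 1 of 43, beside 1.53% of all genes. The fold changes were positive for 20, with a median of 0.00 beside 0.00 over all genes. The smallest p was that of Nfatc4, a calcineurin-driven transcription factor, with 1.25 ± 0.19 CPM in congenics and 1.51 ± 0.21 CPM in wild-type mice (log2 fold change -0.28, SE 0.12, p = 0.0272 unadjusted). Calm2, a calmodulin gene, was at 1994 ± 53.4 CPM in congenics and 1921 ± 53.9 CPM in wild-type mice, and Camk2n1, an inhibitor of CaMKII, at 1792 ± 139 CPM in congenics and 1702 ± 117 CPM in wild-type littermates (SD, n = 8 each). Each of the 3 had an adjusted p above 0.99.

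Between the sexes 0 of 43 passed by edgeR, beside 0.138% of all genes, and 6 had an unadjusted p under 0.05, beside 14.7% of all genes. There were 32 positive fold changes with a median of 0.03, beside 0.00 over all genes. Ppp1r1b, whose product calcineurin dephosphorylates, was at 2097 ± 160 CPM in males and 1837 ± 198 CPM in females (log2 fold change 0.19, SE 0.06, edgeR adjusted p = 0.204). It is itself among the medium spiny neuron markers. Ppp3cc, a catalytic subunit best known from testis, was at 12.8 ± 0.87 CPM in males and 14.1 ± 0.72 CPM in females (log2 fold change -0.14, SE 0.05, edgeR adjusted p = 0.223). Crtc1, a CREB coactivator that calcineurin releases to the nucleus, was at 244 ± 9.17 CPM in males and 227 ± 14.9 CPM in females (log2 fold change 0.11, SE 0.04, edgeR adjusted p = 0.255). DESeq2 and limma-voom called 0 of 43 in both comparisons. Over all genes they called 0 and 0 for genotype, and 261 and 19 for sex.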

How the data were processed

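The authors deposited raw counts per gene and per exon bin, as whole numbers, for 48 runs: 16 mice on lanes 3, 4 and 5. Per the submitters' processing notes limma 3.22.7, edgeR 3.8.6, HTSeq 0.6.1p1 and FastQC 0.10.1 were used. The aligner and the strand setting are not given in the sources used here. Per the labels the reads were described both as 50 bp single-end and as 100 bp paired-end, and the notes list mm9 and mm10. Bins rebuilt from GENCODE vM1 on mm9 matched the deposited number in 16983 of 17420 groups (97.5%), so mm9 coordinates are given. A mouse had 73125051 to 81994255 gene counts and 118458225 to 133151148 exon bin counts. A read that spans several bins is counted in each, and antisense or overlapping genes may share reads. Such counting and the 16 mice limit the precision. Replicates are single mice.

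Lanes were summed per mouse, since the 3 runs of a mouse are repeat runs. Genes were kept by edgeR's filter (minimum count 10, minimum total 15) and TMM-scaled. The main comparison used the quasi-likelihood test of edgeR 4.0.16 in R 4.3.3 with genotype and sex in the model, Benjamini-Hochberg adjusted over all genes with a threshold of 0.05. Bins were tested with diffSpliceDGE and adjusted over all bins. DESeq2 1.42.0 and limma 3.58.1 were alternatives. Ratios used exact two-sided permutation within the other factor, and correlations of log2 CPM (prior count 2) used 100000 two-sided permutations. Read spans of 25 to 300 bases were compared over 22997 bins, and 100 bases, among the spans of least spread, was used. Skipped bins were defined on annotated coding transcripts, leaving aside 1 Ppp3ca model that skips a long run of bins, a choice made after seeing the annotation. Scripts were tested on simulated data. Alternatives were other tools, scalings and filters, single lanes, a cortical score, and mice left out.

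The members, lists, ratios and alternatives were chosen with earlier results of these data known. Pathway genes were named when they passed or had the 3 smallest p per comparison; bins when they had the smallest p of a gene, were skipped coding bins, or spread most. Exon letters were read from the mm9 genome. Of the pathway list 1 name is not reported here.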

Additional observations from a re-analysis of the deposited data

Results flagged for a closer look

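Single mice stood apart from the other 7 of their genotype in 7 of 74 sets of values checked for a gap that is large against the whole range, where chance would give about 3.7. The sets share mice and reads, as bins 29 and 30 of Ppp3ca do, so 7 cannot be weighed against 3.7. Wild-type female Sample_4676 had 108 CPM of Camk2g, above the 88.4 to 94.9 CPM of the other wild-type mice. Congenic female Sample_4804 had a Ppp3cb to Ppp3r1 ratio of 0.283, above 0.249 to 0.264 in the other congenic mice, and bin 8 of Camk2g at 70.5% of its neighbours, above 53.1 to 60.9%. Congenic female Sample_4739 had bin 15 of Camk2b at 2.28% of its neighbours, above 0.95 to 1.49%. Congenic male Sample_4733 had bin 44 of Camk2d at 81.2% of its neighbours, above 58.2 to 66.7%. Wild-type female Sample_4806, whose Xist level went against its sex label, held 0.128% of the Ppp3ca exon counts in bin 29, above 0.0376 to 0.0726%, and 0.201% in bin 30, above 0.0592 to 0.104%. The causes were not tested.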

How the results depend on the processing

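By edgeR, DESeq2 and limma-voom no call was made for genotype or sex on any of the 8 genes under 28 settings, and no bin or ratio was called for genotype. Over all genes, the 28 settings called 0 for genotype and 11 to 261 for sex. Called sex bins numbered 0 without Sample_4753, Sample_4804 and Sample_4806, 0 on lane 3 alone and 1 on lane 4 alone, and 0 to 2 with single mice left out. Called sex ratios, 1 as reported, numbered 0 from exon bin sums, under free permutation, without these 3 females and on lane 3 or 5 alone, and 0 to 1 with single mice left out. Centred within genotype and sex, and without the 3 females, 0 pairs of genes were correlated. These settings for pairs, the correlations with scores without the 3 females, and a read span of 50 bases were chosen after seeing the data. That span put the Ppp3cb insert at 133%, the Ppp3ca insert at 90.1%, and bins 43 and 55 of Camk2d at 66.4 and 75.6%. Bins 20 and 24 of Camk2b were then at 98.2 and 91.6%. All are means over all mice.

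Of 448 refitted log2 fold changes of the 8 genes, 22 changed sign. For genotype, Camk2d was 0.027 with a cortical score as covariate, and Camk2g -0.0091 without the 3 females. For sex, Ppp3r1 was -0.025 with library size alone, -0.0033 at a minimum count of 50, -0.00058 without the 3 females, -0.0073 with the cortical score and -0.0101 on lane 4. Camk2d was 0.036 without the 3 females and 0.025 with the cortical score. Leaving out single mice, the genotype values ran from -0.00024 to 0.039 for Ppp3ca, -0.0012 to 0.026 for Ppp3cb, -0.0499 to 0.0058 for Camk2b, -0.14 to 0.00087 for Camk2d and -0.0086 to 0.046 for Camk2g, and the sex values of Ppp3r1 from -0.0098 to 0.0102. Bin 30 of Ppp3ca ran from -0.34 to 0.017 for genotype.

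The genotype log2 difference of Ppp3ca over Ppp3r1 was 0.0025 from exon sums, 0.0082 on lane 3 and 0.00012 on lane 5. That of Camk2a over Camk2b was 0.0043 without the 3 females. That of Ppp3ca over Ppp3cb was -0.022 without them and -0.0062 on lane 5, and that of Ppp3cb over Ppp3r1 0.0063 on lane 5. Without single mice the genotype differences ran from -0.048 to 0.00063 for Camk2a over Camk2b, -0.11 to 0.043 for Camk2d over Camk2a, -0.027 to 0.038 for Ppp3ca over Ppp3cb, -0.026 to 0.016 for Ppp3ca over Ppp3r1 and -0.022 to 0.0050 for Ppp3cb over Ppp3r1, and the sex difference of Camk2a over Camk2b from -0.025 to 0.024. Centring turned r to 0.12 for Camk2b with the cortical score, 0.19 for Camk4 with the medium spiny neuron score, -0.17 for Ppp3cb with Camk2g, 0.028 for Ppp3r1 with Camk2b and 0.0045 for Camk2a with Camk2d. Leaving out the 3 females turned r to 0.48 for Ppp3ca and 0.49 for Camk2b with the cortical score, 0.061 for Camk4 with the medium spiny neuron score, -0.029 for Ppp3ca with Ppp3r1, -0.43 for Ppp3cb with Camk2d, 0.012 for Ppp3r1 with Camk2b, 0.027 for Ppp3r1 with Camk2g and 0.31 for Camk2a with Camk2d. The causes were not tested.

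No paired analysis was made, because a mouse number stands for a single animal and the sample labels used here give no litter. The least counted exons of Camk2d, at 3.56 and 11.7 counts per mouse, limit the precision there.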
